A study of Mus musculus with 42 samples.

Results

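MS4A4A KO and WT macrophages that had received vehicle and no steroid were compared in 18 of the 42 libraries of the series. These were 9 KO and 9 WT libraries, chosen by their titles, with 3 of each genotype after 2, 8 and 24 h of vehicle. KO is MS4A4A knockout and WT wild type, per the labels; the sources used here do not give the vehicle itself, the strain, age and sex of the mice or the part of the gene that was deleted. All 18 libraries came from bone marrow-derived macrophages grown for 6 days with 50 ng/ml M-CSF, lifted with Accutase, seeded again and used on the next day. The remaining 24 libraries are untreated cells and cells given 1 µM dexamethasone (Dex), a synthetic glucocorticoid. They are used here for the shared estimate of the spread and for companion values. RNA was measured as estimated counts of 11160 genes, and levels are CPM, each gene's counts relative to the total of its library after scaling between libraries. The labels do not say whether replicates came from separate cultures or animals, so p-values measure only the spread between these libraries, which may be technical.

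Ms4a4a encodes a membrane protein with several passes through the lipid bilayer, made mainly by macrophages and mast cells. On macrophages it is known to sit beside the β-glucan receptor Dectin-1, and glucocorticoids raise it. Bone marrow precursors exposed to M-CSF become macrophages that still divide and that hold interferon-stimulated transcripts. Both programmes are part of what a vehicle culture shows. With no steroid present, the design compares KO with WT cells over a day of culture. The strain is not given, so loss of the gene and other differences between KO and WT mice cannot be told apart.

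The vehicle libraries held 19668911 to 32484951 counts (median 28196473). All 10 macrophage markers were measured, with summed levels of 22930 to 39170 CPM in KO and 21580 to 41010 CPM in WT libraries. Of 5 neutrophil markers 3 were measured (17 to 59.1 CPM in KO, 18.7 to 74.3 CPM in WT), and of 5 fibroblast markers 3 (2.41 to 12.8 CPM in KO, 1.30 to 13.6 CPM in WT). None of the 5 defining T and NK cell or 5 defining erythroid markers is among the genes of the table, and the measured B, dendritic and mast cell markers each summed to at most 13.7 CPM. All 4 Y-linked genes measured were present in every library, Ddx3y at 99.3 to 131 CPM in KO and 99.9 to 128 CPM in WT. Some libraries stood apart. The library labelled KO vehicle 24 h replicate 2 lay 0.222 of the way from vehicle to Dex over all genes, where the other 24 h vehicle libraries lay between -0.041 and 0.052. Its level of Fkbp5, a glucocorticoid-induced co-chaperone, was 69.9 CPM, against 12.4 to 18.97 CPM in the other 24 h libraries. The WT libraries numbered 2 differed from WT 1 and 3 over part of chromosome 11, as given with those genes.

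Ms4a4a itself (chromosome 19, 11375523 to 11392790 of GRCm38, plus strand, protein-coding) was measured in every library. After 2 h of vehicle it stood at 30.8, 37.4 and 35.5 CPM in KO libraries 1, 2 and 3, against 79.2, 84.97 and 90.3 CPM in WT. After 8 h it stood at 24.2, 27.5 and 35.02 CPM in KO and 67.03, 71.7 and 80.1 CPM in WT, and after 24 h at 93.02, 179 and 53.5 CPM in KO and 213, 142 and 148 CPM in WT. The genotypes were apart at 2 and 8 h and overlapped at 24 h, where the library labelled KO vehicle 24 h replicate 2 was higher than WT 2 and 3. In bulk RNA, fewer cells making a transcript and less of it per cell cannot be told apart. The counts are per gene, and the deleted part of Ms4a4a is not given. Reads from parts that remain thus cannot be told apart from reads of intact transcripts. Averaged over the times, Ms4a4a was lower in KO, with a log2 fold change of -1.09 ± 0.12 (± SE; adjusted p = 3.97e-06, edgeR's quasi-likelihood test with Benjamini-Hochberg correction). The difference was -0.63 ± 0.21 at 24 h, which was not called (adjusted p = 0.609, edgeR's quasi-likelihood test with Benjamini-Hochberg correction). Without the library labelled KO vehicle 24 h replicate 2 it was -1.20 ± 0.17 at 24 h (adjusted p = 0.000401) and -1.28 ± 0.09 on average (adjusted p = 2.22e-11), both by edgeR quasi-likelihood with Benjamini-Hochberg adjustment. That library was at KO level in Fam177a, Srp54a and Srp54b, which follow, with Fam177a at 73.5 CPM, against 56.7, 39.2 and 35.1 CPM in WT. In Fcgr2b and Tgtp1, given further below, it was the highest KO library of 24 h.

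**Figure D1:**
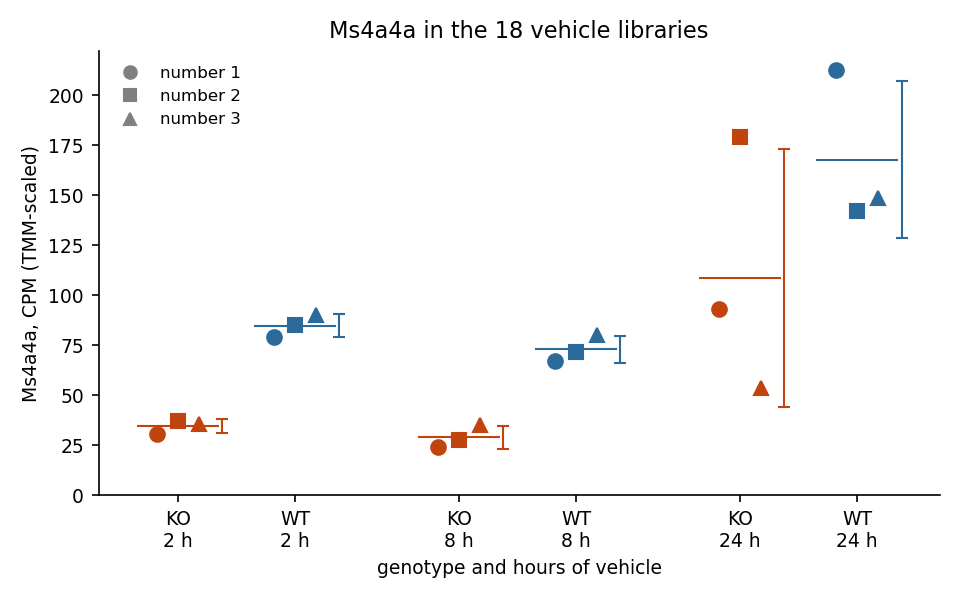
Ms4a4a in CPM (vertical axis) in each of the 18 vehicle libraries, by genotype and hours of vehicle; symbols give the replicate number, horizontal lines the mean of 3 libraries and bars ± 1 SD. KO libraries lie between 24.2 and 37.4 CPM at 2 and 8 h, below all WT libraries of the same times, and 1 KO library at 24 h reaches 179 CPM.

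Beside Ms4a4a, few genes differed when the genotype effect was averaged over the 3 times: 7 of 11160 genes were called in all (0.0627%), 5 higher (0.0448%) and 2 lower (0.0179%) in KO, with 654 genes (5.86%) at an unadjusted p under 0.05. The 5 higher genes were Fam177a, 1700047I17Rik2, Srp54a, Srp54b and Pnpla8, and the other lower gene was Lyrm7. Fam177a rose 1.72-fold (log2 0.78 ± 0.11, adjusted p = 0.000193, edgeR's quasi-likelihood test with Benjamini-Hochberg correction), from 9 libraries a side. It stood at 89.9, 86.5 and 89.3 CPM in KO and 66.98, 44.6 and 48.5 CPM in WT after 2 h, at 71.1, 83.2 and 75.9 CPM in KO and 54.6, 36.3 and 36.3 CPM in WT after 8 h, and at 72.05, 73.5 and 76.9 CPM in KO and 56.7, 39.2 and 35.1 CPM in WT after 24 h. Every KO library was above every WT library of its time, and among WT libraries number 1 was the highest each time.

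Srp54a and Srp54b both encode the GTPase subunit of the signal recognition particle, which brings nascent secretory proteins to the endoplasmic reticulum. Srp54a ranged over 56.9 to 69.3 CPM (median 61.3) in KO and 28.8 to 48.3 CPM (median 36.5) in WT libraries, a log2 difference of 0.66 ± 0.10. Srp54b ranged over 127 to 143 CPM (median 132) in KO and 86.3 to 116 CPM (median 95.8) in WT, a difference of 0.41 ± 0.06. For both genes the genotypes did not overlap at any time. The other 17 measured genes of the signal recognition particle and translocon were not called, and the median log2 difference of all 19 was -0.01. 1700047I17Rik2 ranged over 22.6 to 36.4 CPM (median 29.9) in KO and 11.4 to 30.4 CPM (median 16.2) in WT (difference 0.75 ± 0.13). The groups overlapped at 8 h alone, where KO and WT number 1 had 22.6 CPM each. The adjusted p of these genes were 0.000282 for Srp54a, 0.000416 for Srp54b and 0.00645 for 1700047I17Rik2 (edgeR's quasi-likelihood test with Benjamini-Hochberg correction).

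Pnpla8, a calcium-independent phospholipase of mitochondria and peroxisomes, ranged over 77.02 to 107 CPM (median 88.5) in KO and 53.3 to 87.9 CPM (median 66.2) in WT. It was higher in KO in each of the 9 same-numbered pairs, by 0.224 to 0.733 on the log2 scale, and on average by 0.44 ± 0.09 (adjusted p = 0.0248, edgeR's quasi-likelihood test with Benjamini-Hochberg correction). The 9 pairs are 3 numbers at each of 3 times, and so may not be separate samples. For genes chosen by a fit, here and below, the count of pairs in a direction is a description with no test. Lyrm7 encodes an assembly factor of mitochondrial complex III. It stood at 5.87, 6.63 and 7.41 CPM in KO and 13.2, 6.86 and 12.9 CPM in WT after 2 h, at 6.30, 6.90 and 4.29 CPM in KO and 13.1, 5.95 and 11.6 CPM in WT after 8 h, and at 6.46, 5.44 and 6.46 CPM in KO and 12.4, 9.01 and 11.3 CPM in WT after 24 h. WT number 2 was the lowest WT library each time and lay within the KO values at 2 and 8 h. The average difference was -0.79 ± 0.15 (adjusted p = 0.0154, edgeR's quasi-likelihood test with Benjamini-Hochberg correction). Ms4a4a and the 4 genes of chromosome 12 from Srp54a to 1700047I17Rik2 were called in each of the 18 fits without 1 library. Those fits keep the libraries of the same number at other times. With number 2 or number 3 left out of all groups, none of these 4 genes was called. Without number 3 Ms4a4a alone was called, and without number 1 Ms4a4a and all 4 were. Pnpla8 was called in 7 of them: without WT number 1 of any time, KO 3 of any time or KO 2 at 8 h. Lyrm7 was lost without KO 1 at 2 h, WT 1 at 2 or 24 h, WT 3 at 2 or 8 h, or KO 3 at 8 h. The count rose to 11 without WT 2 at 24 h.

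Same-numbered KO and WT libraries deviated together from their group means at every time, so the number was also used as a block. With the number as a block, 41 genes were called on average (0.367%), 19 higher (0.17%) and 22 lower (0.197%) in KO, the 7 above among them. With the number nested in time in the vehicle libraries alone it was 24 genes (0.216%), 16 higher (0.144%) and 8 lower (0.0719%), of which 17 were shared with the 41 and 6 with the 7. Lyrm7 was the 1 of the 7 lost there (adjusted p = 0.0772, edgeR's quasi-likelihood test with Benjamini-Hochberg correction). The 7 genes called by the nested block alone included Fos (0.29 ± 0.04), the calcium channel gene Itpr3 (0.33 ± 0.05), the carboxypeptidase gene Cpd (0.22 ± 0.04), the clathrin adaptor gene Hip1 (0.21 ± 0.04), the pentraxin gene Nptx1 (0.40 ± 0.06) and Gpr162 (-0.29 ± 0.05). The log2 differences that follow are from the block over all libraries, with SE, and each gene had an adjusted p of at most 0.0478 there (edgeR's quasi-likelihood test with Benjamini-Hochberg correction).

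**Figure D2:**
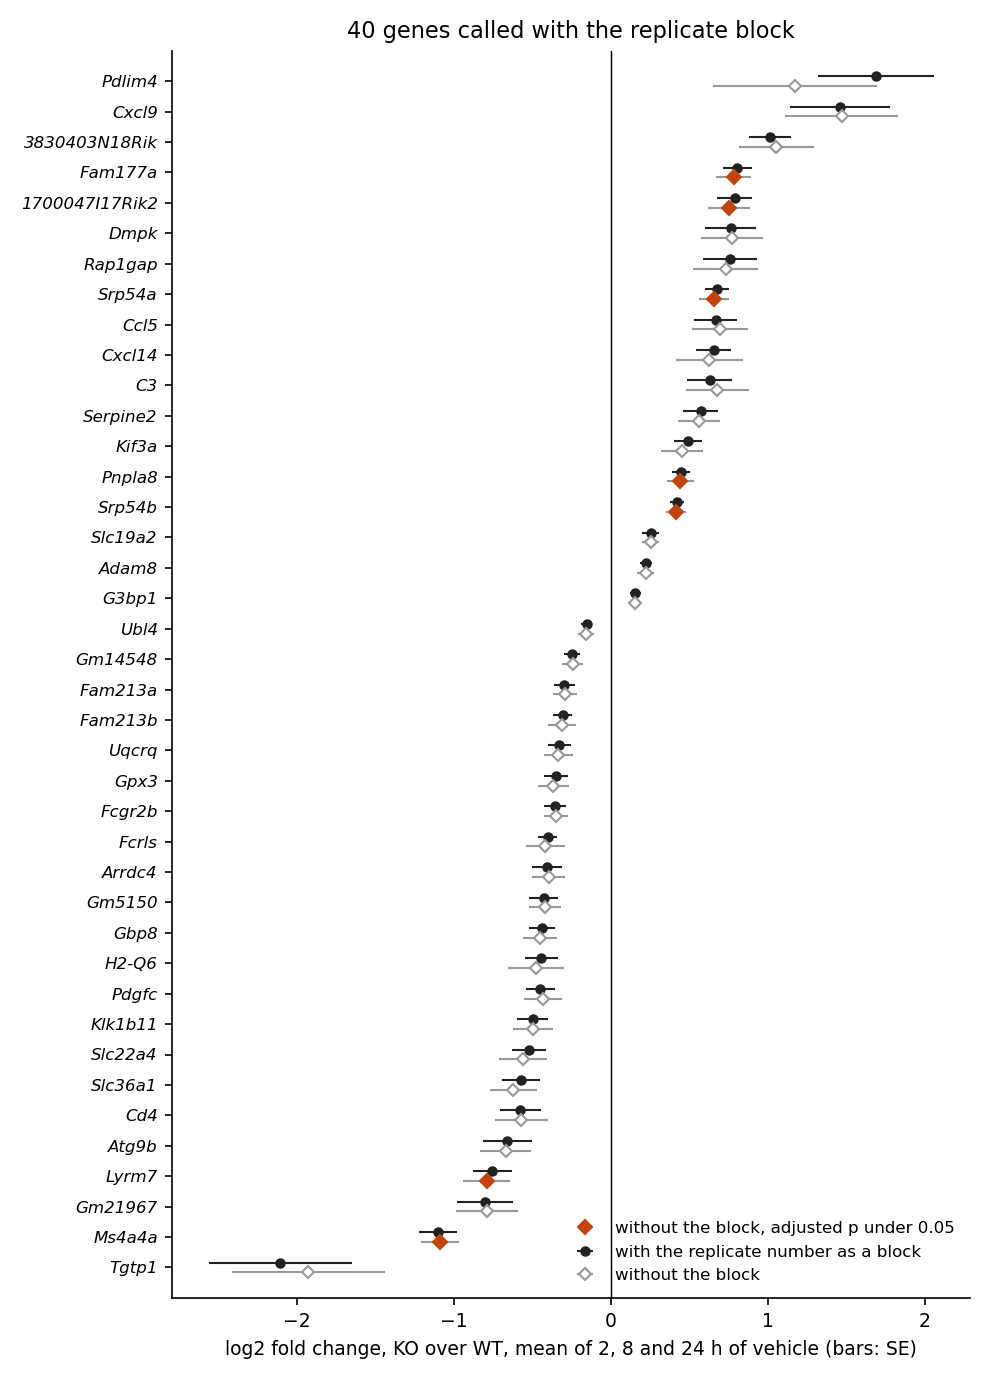
Log2 fold change of KO over WT (horizontal axis, bars ± 1 SE), averaged over 2, 8 and 24 h of vehicle, for 40 of the 41 genes called with the replicate number as a block. Circles are the fit with the block, diamonds the fit without it, and filled diamonds the 7 genes called there; Pdlim4 moves most between the fits, with 1.69 with and 1.17 without the block.

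Genes higher in KO with the block included chemokine genes and the complement gene C3. Of 18 chemokine ligand genes measured 3 rose and 0 fell with the block: Cxcl9 (1.46 ± 0.32), Ccl5 (0.67 ± 0.14) and Cxcl14 (0.66 ± 0.11). Over all genes 0.17% were called higher and 0.197% lower with the block. Cxcl14 was at a low level, 2.67 to 6.64 CPM in KO and 1.1 to 4.45 CPM in WT, as was Cxcl9, given below. With the block nested in time Cxcl14 was still called, while Cxcl9 (adjusted p = 0.0645), Ccl5 (0.0638) and C3 (0.134) were not, by edgeR's quasi-likelihood test with Benjamini-Hochberg correction. The median of the 18 without the block was 0.02, against 0.00 over all genes. Ccl5 attracts T cells and monocytes. It stood at 437, 233 and 280.1 CPM in KO and 234, 234 and 162 CPM in WT after 2 h, and at 207, 142 and 135 CPM in KO and 90.99, 109 and 83.5 CPM in WT after 24 h. The groups overlapped at 2 h, where KO and WT number 2 were nearly equal, and were apart at 24 h. Cxcl9, an interferon-γ-induced T cell attractant, was scarce, at 6.91, 2.86 and 5.16 CPM in KO and 2.62, 2.51 and 1.65 CPM in WT after 2 h, and higher in KO in all 9 pairs. C3, the complement protein on which all activation pathways meet, was the member called among 16 complement genes (0.63 ± 0.14). The share called higher over all genes was again 0.17%. C3 ranged over 45.01 to 217 CPM (median 105) in KO and 39.8 to 117 CPM (median 81.3) in WT, and KO was the higher in 8 of 9 pairs. Cfb, of the alternative pathway, differed by 0.87 ± 0.22 without the block and was called by DESeq2 but not by edgeR (adjusted p = 0.175, edgeR's quasi-likelihood test with Benjamini-Hochberg correction).

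Genes lower in KO with the block (0.197% of all genes) included Fc receptor genes and the interferon-induced GTPase genes Gbp8 and Tgtp1. Tgtp1 has a copy, and the summed counts of the pair were not lower, as given below. Nested in time, Fcrls and Gbp8 were still called, while Fcgr2b (adjusted p = 0.121), H2-Q6 (0.137), Cd4 (0.0615) and Tgtp1 (0.122) were not, by edgeR's quasi-likelihood test with Benjamini-Hochberg correction. Fcgr2b, the inhibitory Fcγ receptor, ranged over 44.5 to 114 CPM (median 59.9) in KO and 66.96 to 134 CPM (median 74.9) in WT (log2 -0.35 ± 0.07). The highest KO value was again from the library labelled KO vehicle 24 h replicate 2. Without that library Fcgr2b was called without the block as well (log2 -0.43 ± 0.07; adjusted p = 0.00107, edgeR's quasi-likelihood test with Benjamini-Hochberg correction). That fit drops the highest KO value. Of the 18 fits without 1 library only 2 called Fcgr2b, this one and that without WT 2 at 24 h. Fcrls, an Fc receptor-like gene, was lower in KO in all 9 pairs (-0.40 ± 0.06). Gbp8, a guanylate-binding protein, was lower in all 9 pairs too (-0.44 ± 0.08), at 6.98 to 13.5 CPM (median 9.09) in KO and 9.33 to 19.98 CPM (median 12.4) in WT. H2-Q6, a non-classical MHC class I gene with close relatives in its cluster, was lower (log2 -0.44 ± 0.10), at 4.65 to 13.6 CPM (median 9.74) in KO and 2.99 to 24.1 CPM (median 12.6) in WT. Its difference was largest at 2 h (-0.76 without the block) and -0.10 at 24 h, and the test of a difference between times did not call it (adjusted p = 1, edgeR's quasi-likelihood test with Benjamini-Hochberg correction). Cd4, which some macrophages express, was lower (log2 -0.58 ± 0.13), at 6.92 to 15.3 CPM (median 9.79) in KO and 11.1 to 20.7 CPM (median 14.97) in WT, and was the 1 measured member of 16 T and NK cell markers.

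Further genes called with the block have varied roles. Of those that follow, Slc19a2, Pdgfc and Arrdc4 were not called with the block nested in time (adjusted p = 0.0525, 0.0752 and 0.0793, edgeR's quasi-likelihood test with Benjamini-Hochberg correction). The metalloprotease gene Adam8 was abundant and rose by 0.22 ± 0.04, at 1650.5 to 2016 CPM (median 1780.4) in KO and 1395 to 1724 CPM (median 1498) in WT. Serpine2, an inhibitor of thrombin and plasminogen activators, rose by 0.57 ± 0.11, Dmpk, a kinase gene, by 0.76 ± 0.16 and Slc19a2, a thiamine transporter gene, by 0.25 ± 0.05, each higher in KO in all 9 pairs. The growth factor gene Pdgfc fell by 0.45 ± 0.09, the kallikrein gene Klk1b11 by 0.50 ± 0.10 and the arrestin-domain gene Arrdc4 by 0.41 ± 0.10. Pdgfc and Klk1b11 were lower in KO in all 9 pairs. 3830403N18Rik on the X chromosome was higher in all 9 pairs (1.01 ± 0.14) at a low level, 1.49 to 4.58 CPM (median 3.35) in KO and 0.976 to 2.20 CPM (median 1.49) in WT.

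Within single times, Ms4a4a was the 1 gene called at 2 h and at 8 h (0.00896% each). Unadjusted p fell under 0.05 for 495 genes at 2 h (4.44%) and for 218 at 8 h (1.95%). At 24 h 0 genes were called by edgeR quasi-likelihood (0%), where 664 (5.95%) had an unadjusted p under 0.05, and 0 by DESeq2. With the block there were 2 genes at 2 h (0.0179%), Ms4a4a and 3830403N18Rik, and 4 at 8 h (0.0358%), Ms4a4a, Fam177a, Srp54a and Srp54b. At 24 h Srp54b was called with the block (0.00896%; log2 0.48), and nested in the vehicle libraries alone Vat1 was (0.00898%). Vat1, a vesicle membrane protein, stood at 51.02, 45.3 and 53.2 CPM in KO and 82.6, 71.2 and 74.8 CPM in WT after 24 h, without overlap, and at 76.1, 53.8 and 52.4 CPM in KO and 73.3, 53.4 and 49.4 CPM in WT after 2 h. At 2 h the call on Ms4a4a was lost without any single KO library of that time or without WT 2 or 3, and at 8 h without KO 1, KO 2 or WT 3. At 8 h 3 genes were called without WT 1. At 24 h 1 gene was called without WT 1, KO 1 or KO 2, 3 without KO 3 and 14 without WT 2.

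Genes with the lowest p at a time, beside Ms4a4a, were not called. At 2 h the chromatin remodeller gene Rsf1 was at 22.6, 25.3 and 20.3 CPM in KO and 30.2, 27.4 and 30.5 CPM in WT (log2 -0.37 ± 0.08). Tfec, a macrophage transcription factor of the MiT family, was at 20.5, 23.8 and 21.7 CPM in KO and 31.1, 27.4 and 26.9 CPM in WT (-0.37 ± 0.09). At 8 h Dgat2, an enzyme of triglyceride synthesis, was at 0.344, 0.528 and 0.390 CPM in KO and 1.01, 0.936 and 0.959 CPM in WT. At 24 h Anpep, the aminopeptidase CD13, was at 300.1, 245 and 349 CPM in KO and 504, 341 and 516 CPM in WT (-0.61 ± 0.14), and Gpr162 at 27.3, 22.3 and 24.6 CPM in KO and 38.1, 31.6 and 42.3 CPM in WT (-0.59 ± 0.14). KO was below WT without overlap in Rsf1, Tfec, Dgat2 and Gpr162 at the times given, while in Anpep 1 KO library lay above the lowest WT library, and the lowest adjusted p of these genes was 0.432 (edgeR's quasi-likelihood test with Benjamini-Hochberg correction).

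Whether the genotype effect differed between 2, 8 and 24 h was tested with a single F test per gene. It called 0 genes (0%) by edgeR quasi-likelihood, without and with the block, where 347 genes (3.11%) had an unadjusted p under 0.05. The likelihood ratio test of DESeq2 called 1, Hist1h2bq. This histone gene was at 2.43, 0.260 and 1.25 CPM in KO and 0 CPM in all 3 WT libraries after 2 h, and at 1.34, 1.999 and 1.02 CPM in KO and 1.10, 2.81 and 3.34 CPM in WT after 8 h. It is one of a family of near-identical histone genes between which the counting could move reads. For Ms4a4a the unadjusted p of the time test was 0.0381, and its adjusted p was 1 (edgeR's quasi-likelihood test with Benjamini-Hochberg correction). So a call at 2 or 8 h and none at 24 h was not shown to be a difference between times. Nor was any gene's vehicle effect called as different from that in untreated cells (0 genes, 0%; 153 at an unadjusted p under 0.05 by edgeR quasi-likelihood, and 0 by DESeq2).

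Of the 7 genes called without the block, 4 were neighbours. On chromosome 12 Srp54a starts at 55080262, Fam177a at 55124469, Srp54b at 55155104 and 1700047I17Rik2 at 55199592, all on the plus strand, and the last ends at 55217168. They span 136.9 kb, and no other measured gene lies between them. Pnpla8 is on the same chromosome (44221370 to 44322532), outside this stretch. The 4 genes are 2 pairs of copies. The coding sequence of Fam177a equals that of 1700047I17Rik2 over all 621 bases, and that of Srp54a equals that of Srp54b over all 1512 bases, in GENCODE release M21. Their first 120 coding bases are shown, since reads from them cannot be placed in either copy:
Fam177a and 1700047I17Rik2: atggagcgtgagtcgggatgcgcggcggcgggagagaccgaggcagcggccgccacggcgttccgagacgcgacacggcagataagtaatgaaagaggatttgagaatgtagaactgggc
Srp54a and Srp54b: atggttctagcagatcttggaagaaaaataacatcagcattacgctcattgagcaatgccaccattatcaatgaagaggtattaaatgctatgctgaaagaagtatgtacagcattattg
Over the annotated transcripts, all 3833 distinct words of 31 bases in 1700047I17Rik2 also occur in Fam177a, and 86.1% of those in Srp54b occur in Srp54a. The separate values of the copies, of 1700047I17Rik2 above all, are therefore uncertain. With the counts of each pair summed, both sums stayed higher in KO, Fam177a with 1700047I17Rik2 by 0.77 ± 0.11 (adjusted p = 0.000381) and Srp54a with Srp54b by 0.49 ± 0.07 (adjusted p = 0.000201; edgeR's quasi-likelihood test with Benjamini-Hochberg correction).

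Tgtp1, an interferon-inducible GTPase that fell by 2.10 ± 0.46 with the block, also has a copy, Tgtp2, on the same chromosome. Their coding sequences differ at 4 of 1245 bases, and coding bases 616 to 735 are shown with the 2 bases that differ there in capitals:
Tgtp1: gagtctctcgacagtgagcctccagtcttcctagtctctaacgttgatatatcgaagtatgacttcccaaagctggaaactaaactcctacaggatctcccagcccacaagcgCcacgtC
Tgtp2: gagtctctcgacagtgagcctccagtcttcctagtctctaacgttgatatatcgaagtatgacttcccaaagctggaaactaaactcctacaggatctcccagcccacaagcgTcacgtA
After 2 h Tgtp1 stood at 3.78, 12.2 and 3.19 CPM in KO and 15.9, 18.1 and 27.9 CPM in WT, while Tgtp2 stood at 72.4, 31.7 and 55.4 CPM in KO and 34, 37.8 and 20.9 CPM in WT. The genotypes were apart for Tgtp1 and overlapped for Tgtp2, in which KO libraries 1 and 3 were the highest. Without the library labelled KO vehicle 24 h replicate 2, the average difference of Tgtp1 without the block was -4.40 ± 0.92, against -1.93 with it. The other KO libraries were at 0 CPM at 24 h, and a fitted value against such libraries is no bound. The summed counts of the pair differed by 0.18 ± 0.17 and were not called (adjusted p = 0.886, edgeR's quasi-likelihood test with Benjamini-Hochberg correction), a direction opposite to that of Tgtp1 alone.

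On chromosome 11 a longer stretch held 8 of the genes called with the block, Lyrm7 included. From Uqcrq to G3bp1 (53427922 to 55504838) it spans 2077 kb with 24 measured genes, of which 3 were higher and 5 lower in KO. Of the 8, Uqcrq alone was also called with the block nested in time. Stretches were drawn through called genes with starts at most 1 Mb apart, so they begin and end at called genes by rule. Together, the stretches on chromosomes 11 and 12 held 12 of the 39 genes called by either fit that have a single place. They hold 28 measured genes, a number set by the calls themselves. With the block, 10 of 912 genes (1.1%) were called on all of chromosome 11 and 5 of 370 (1.35%) on chromosome 12. Over all genes it was 0.367%. Around Ms4a4a, 0 of 96 measured genes within 5 Mb were called by either fit (4 at an unadjusted p under 0.05). Within the stretch, Irf1, Rad50, Slc22a5 and Cdc42se2 had log2 differences of -0.09, -0.03, -0.00 and -0.00 with the block; they were chosen after their values were seen.

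**Figure D3:**
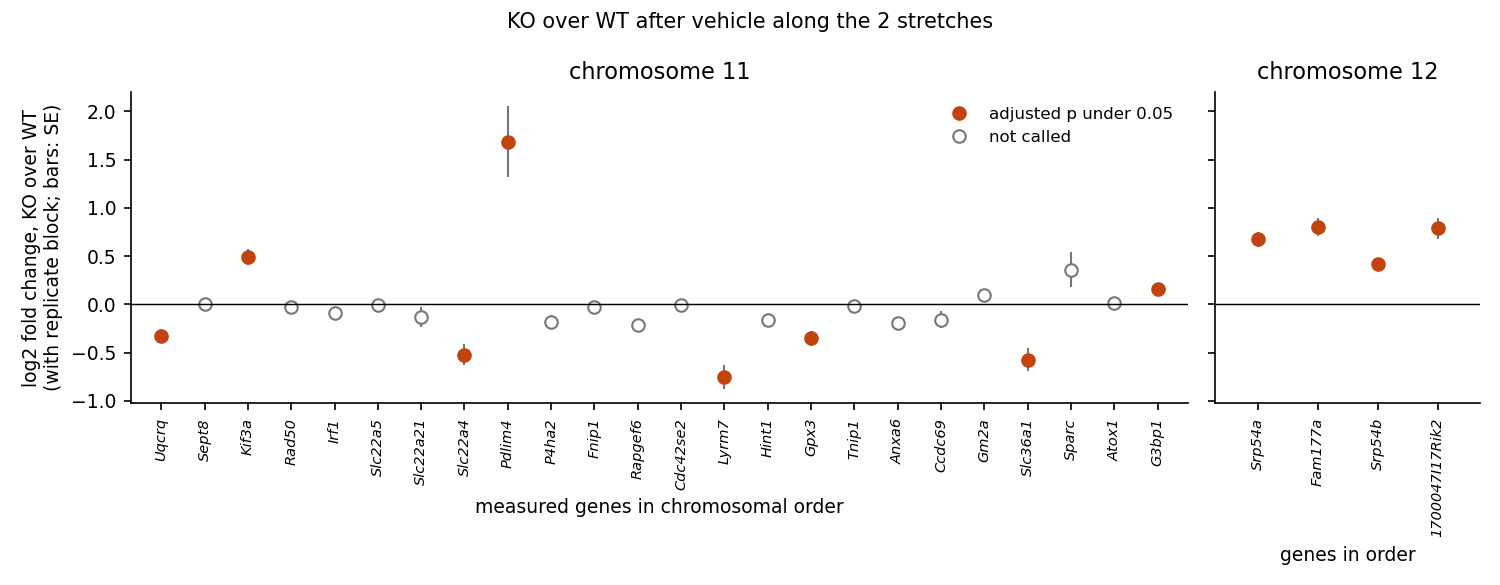
Log2 fold change of KO over WT after vehicle, from the fit with the replicate block (vertical axis, bars ± 1 SE), for the 24 measured genes of the stretch on chromosome 11 and the 4 on chromosome 12, in chromosomal order. Filled points were called; all 4 genes on chromosome 12 are above 0, and on chromosome 11 called genes above and below 0 stand among genes near 0.

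On chromosome 11 the WT libraries did not form a single group. Pdlim4, a cytoskeletal PDZ and LIM domain protein, had 9.32 to 11.8, 10.9 to 14.6 and 10.5 to 14.6 CPM over the 3 times in KO libraries numbered 1, 2 and 3. WT libraries had 1.51 to 1.98 CPM in number 1, 9.56 to 18.2 CPM in number 2 and 1.24 to 2.49 CPM in number 3. WT number 2 thus lay in the range of KO, and WT 1 and 3 were far below both. The same held for Kif3a, a subunit of the kinesin motor of cilia, at 53.8 to 80.4, 59.4 to 91.3 and 58.1 to 72.8 CPM in KO 1, 2 and 3, against 33.7 to 52.7, 60.97 to 76.1 and 34.6 to 45.2 CPM in WT 1, 2 and 3. Slc22a4, a carrier of ergothioneine and carnitine, ran the other way, with 53.8 to 68.7, 57.7 to 81.1 and 73.1 to 85.2 CPM in KO and 88.8 to 122, 64.01 to 75.01 and 111 to 151 CPM in WT. Slc36a1, a lysosomal amino acid transporter, had 22.4 to 28.1, 26.5 to 34.1 and 23.4 to 31.6 CPM in KO and 35.99 to 55.3, 25.7 to 30.2 and 42.7 to 64.01 CPM in WT. In both carriers WT number 2 was again at the level of KO.

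Over the 8 called genes and 3 times, the WT library nearest to the KO mean was number 2 in 22 of 24 instances (91.7%), against 36.9% over all genes. On chromosome 12 it was number 1 in all 12 instances, against 29.7% over all genes, although number 1 still lay below KO there in Fam177a, Srp54a and Srp54b. The number that stands out was chosen after the values were seen, so these shares are a description with no test. The pattern recurred in the untreated and Dex libraries, where Pdlim4 had 3.70 to 9.43, 4.69 to 12.3 and 4.63 to 10.7 CPM in KO 1, 2 and 3 and 0.233 to 1.13, 4.001 to 11.2 and 0.314 to 1.38 CPM in WT 1, 2 and 3. Without the libraries numbered 2, 16 genes were called on average, among them Pdlim4, Kif3a, Slc22a4, Slc36a1, Gpx3, P4ha2 and Anxa6 of this stretch, and of the 7 genes Ms4a4a and Lyrm7. Why WT libraries numbered 2 differ there was not tested.

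**Figure D4:**
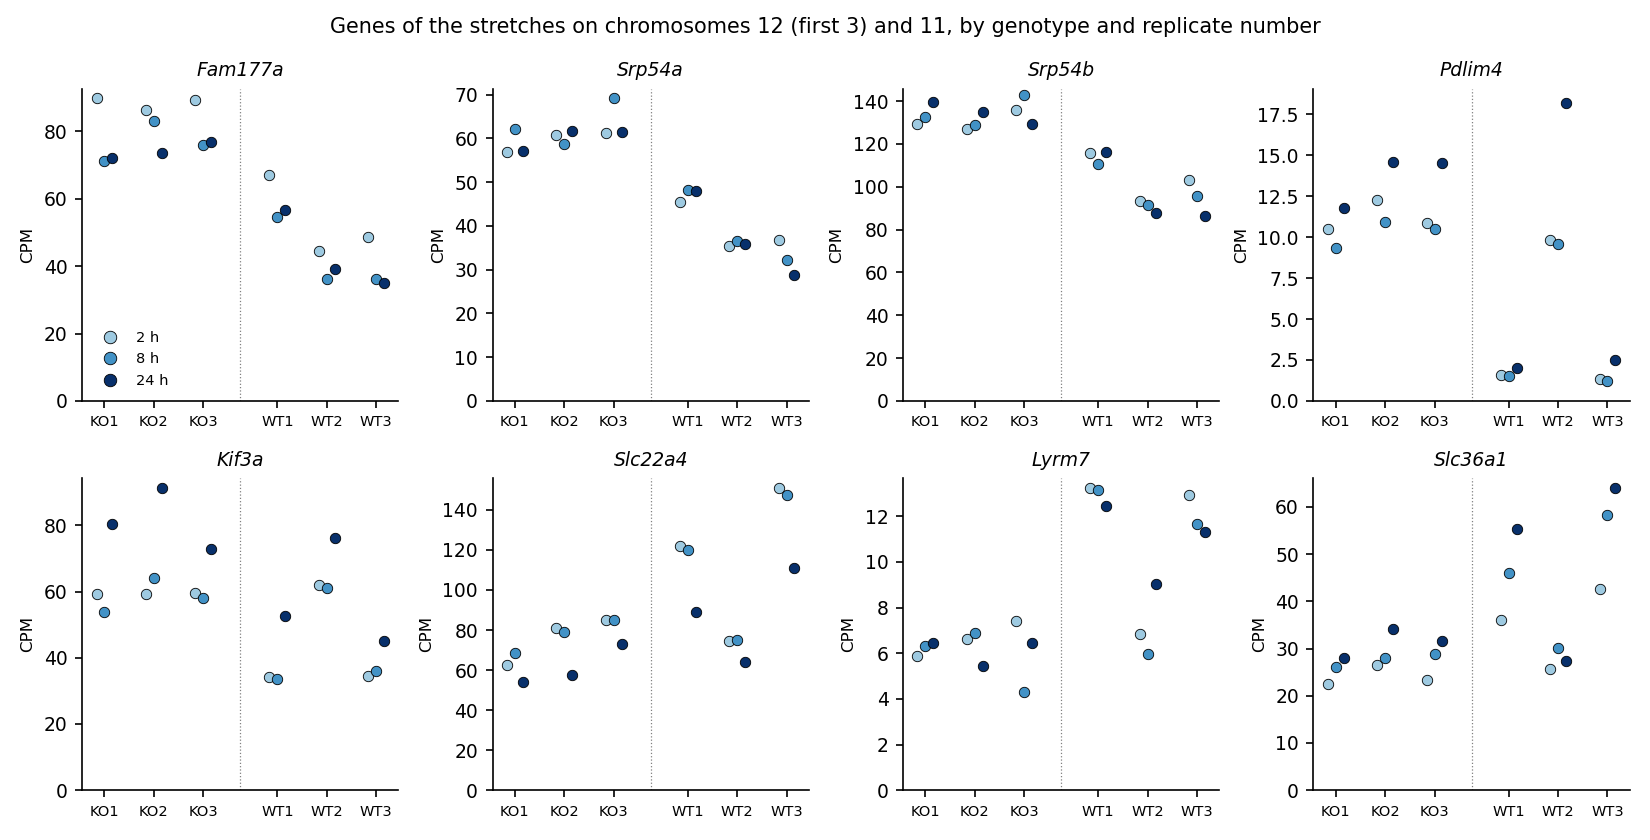
CPM (vertical axes, from 0) of 8 genes of the stretches in KO and WT libraries by replicate number, with a point for each of 2, 8 and 24 h of vehicle. For Fam177a, Srp54a and Srp54b all WT libraries lie below KO, number 1 nearest; for Pdlim4, Kif3a, Slc22a4, Lyrm7 and Slc36a1 WT number 2 lies near KO and WT 1 and 3 apart.

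Antiviral interferon-stimulated genes, the transcripts that type I interferon induces, had a median log2 difference of 0.21 averaged over the times, with 0.15 at 2 h, 0.25 at 8 h and 0.22 at 24 h, against 0.00 over all genes. Of 42 members 0 were called by edgeR quasi-likelihood and 0 by DESeq2, and 20 were higher and 0 lower at an unadjusted p under 0.05 (343 higher and 311 lower of all 11160). Irf7, the transcription factor that amplifies the interferon response, stood at 509, 344 and 443 CPM in KO and 295, 332 and 332 CPM in WT after 8 h (0.46 ± 0.12 on average; adjusted p = 0.227, edgeR's quasi-likelihood test with Benjamini-Hochberg correction). Ifit2, an inhibitor of viral translation, stood at 99.6, 48.2 and 215 CPM in KO and 60.1, 64.7 and 76.3 CPM in WT after 8 h. KO number 2 was the lowest KO library in both genes at 8 h, and in Ifit2 it lay below all WT libraries. Over the whole list KO was the higher in 7 of 9 pairs, and pair 2 was the exception at 2 h (-0.12) and 8 h (-0.32). In untreated cells the list's median was 0.18, and over the Dex times -0.04. The level of the list fell with time in both genotypes. Its members summed to 7167 to 8740 CPM in KO and 6838 to 7732 CPM in WT after 2 h. After 24 h they summed to 2159 to 2881 CPM in KO and 2085 to 2509 CPM in WT.

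Other interferon-linked lists were mixed. Among 16 interferon-inducible GTPases the median was 0.14, with Tgtp1 and Gbp8 lower and 0 higher with the block. Over all genes 0.197% were lower and 0.17% higher with the block. Tgtp1 shares most of its sequence with Tgtp2, and the summed counts of the pair differed by 0.18 ± 0.17 and were not called. Among 19 genes of MHC class I and the immunoproteasome the median was 0.01, and H2-Q6 was lower. Of 9 Ms4a genes Ms4a4a was the 1 called. Its neighbour Ms4a4c, which is induced by interferon, differed by 0.44 ± 0.16 and was not called (adjusted p = 0.622, edgeR's quasi-likelihood test with Benjamini-Hochberg correction). Of 25 immediate early genes 0 were called by edgeR quasi-likelihood without the block or with it over all libraries, and 0 by DESeq2, with 3 higher and 2 lower at an unadjusted p under 0.05. Fos was higher in KO in all 9 pairs, at 132, 129 and 109 CPM in KO and 85.2, 98.1 and 86.3 CPM in WT after 24 h (0.29 ± 0.10 on average without the block; adjusted p = 0.507, edgeR's quasi-likelihood test with Benjamini-Hochberg correction). Nested in time in the vehicle libraries alone it was called (adjusted p = 0.0066, edgeR's quasi-likelihood test with Benjamini-Hochberg correction).

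The medians of the cell cycle lists differed in sign between times, without a called gene. The 36 mitosis genes had medians of 0.23 at 2 h, 0.16 at 8 h and -0.25 at 24 h, and the 37 genes of DNA replication and S phase 0.14, 0.08 and -0.11. At 24 h the pairs split, with mitosis differences of -0.50, -0.33 and 0.23 in pairs 1, 2 and 3, so the sign differed between pairs. Without the library labelled KO vehicle 24 h replicate 2 the 24 h medians were -0.20 and -0.03. No member of either list was called on average or in the test between times by edgeR quasi-likelihood, and at an unadjusted p under 0.05 on average stood 0 mitosis genes and 1 S-phase gene, Chaf1a, a chromatin assembly factor (0.19 ± 0.08). DESeq2 called 0 in either list.

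**Figure D5:**
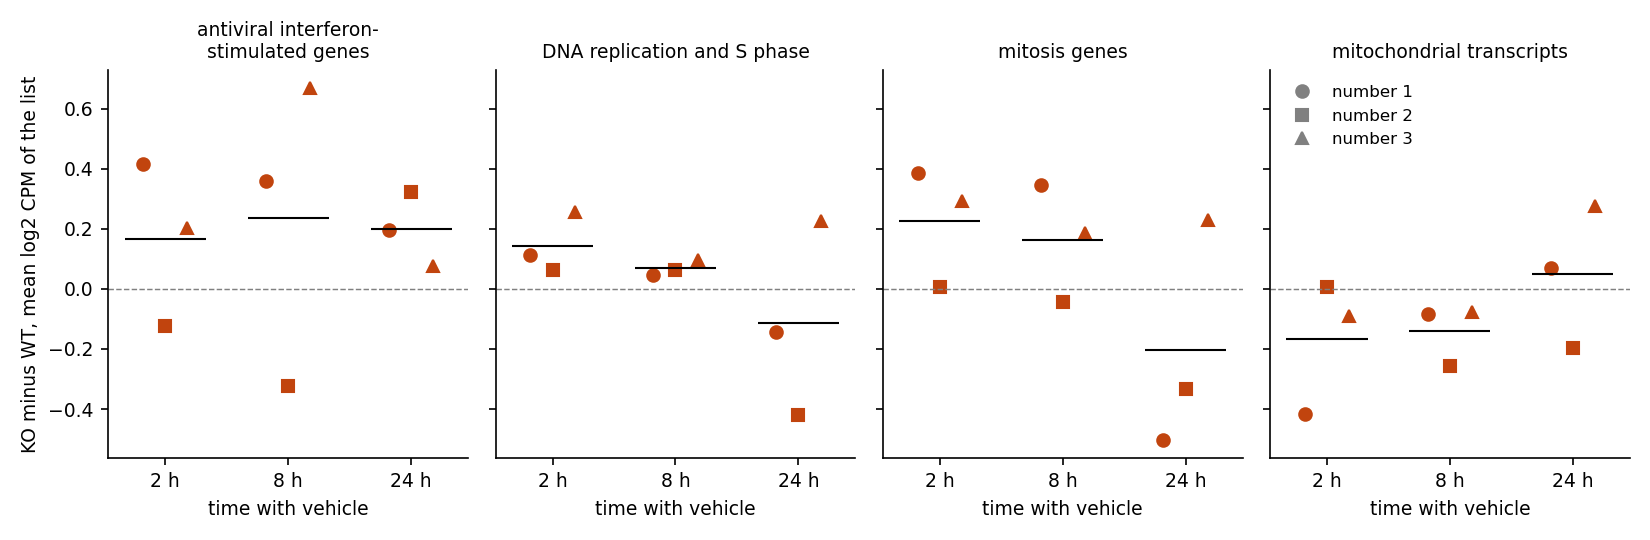
Difference in mean log2 CPM between KO and WT libraries of the same replicate number (vertical axis) for 4 gene lists after 2, 8 and 24 h of vehicle; symbols give the number and lines the mean of 3 pairs. Antiviral genes lie above 0 in 7 of 9 pairs, with pair 2 below 0 at 2 and 8 h; mitosis genes lie above 0 in 3, 2 and 1 pairs at 2, 8 and 24 h.

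Mitochondrial and metabolic lists held few called genes. The 13 mitochondrial transcripts had a median of -0.10, with 0 at an unadjusted p under 0.05 and 0 called by edgeR or DESeq2. Of 16 complex III subunits and assembly factors Lyrm7 was lower, and with the block also Uqcrq, a subunit of the same complex (-0.33 ± 0.07), which lies in the stretch on chromosome 11. Of 22 NRF2 and glutathione genes Gpx3, a secreted glutathione peroxidase, was lower with the block (-0.35 ± 0.08) and lies there as well, as does Slc36a1 among 21 genes of amino acid transport (-0.57 ± 0.12). G3bp1, a scaffold of stress granules named after its values were seen, since it ends the stretch, was higher by 0.15 ± 0.04. The 27 glucocorticoid receptor targets had 0 called by edgeR with or without the block and 0 by DESeq2, with 3 higher and 2 lower at an unadjusted p under 0.05, and a median of -0.01. Fkbp5, the first of these by p, differed by 1.21 ± 0.30 at 24 h, and by 0.08 ± 0.16 without the library labelled KO vehicle 24 h replicate 2. Of the 36 lists, 3 held a gene called without the block and 11 one called with it. Over all 11160 genes the calls were 0.0627% without and 0.367% with the block. The lists name 739 genes and were chosen with earlier results of these data known, so these counts are a description.

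The same genes were looked up in the untreated and Dex libraries, whose contrasts come from the same block fit over all 42 libraries and share its spread and number effects with the vehicle contrast. Of the 40 genes called beside Ms4a4a, 40 had the same sign in untreated cells and 39 over the Dex times, against 63.4% and 46.1% of all genes. Of these 40, 3 were called in untreated cells, where 0.0269% of all genes were called, and 17 over Dex, where 0.332% were. Deviations of libraries of the same genotype and number correlated between vehicle times at 0.0126 to 0.436 in KO and 0.104 to 0.403 in WT. Libraries of different numbers reached 0.110 in KO and 0.235 in WT, so the lowest same-number values lay below these. Whether libraries of the same genotype and number stem from the same cells, and so are not separate samples, was not tested. With vehicle counts summed into 3 sets a side by genotype and number, the edgeR quasi-likelihood count was 0 genes (0%), block or no block, where 368 genes without and 811 with it had an unadjusted p under 0.05. DESeq2 called 5. In that fit Ms4a4a differed by -0.96 ± 0.24 and Fam177a by 0.79 ± 0.14 (adjusted p = 0.999 for each, edgeR's quasi-likelihood test with Benjamini-Hochberg correction).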

How the data were processed

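Bulk RNA-seq libraries were made with the SMART-Seq mRNA LP kit, per the labels' protocols. The authors deposited estimated counts per gene; the submitters' processing notes name fastp, HISAT2, Salmon and GRCm38, with no order or version, and the sources used here do not give the annotation. Of 468720 values 69.5% were whole within 0.01. The lowest gene total over all libraries was 256. Counts were rounded, scaled by TMM and fitted with the quasi-likelihood test of edgeR 4.0.16 (R 4.3.3) as 14 group means over all 42 libraries, with Benjamini-Hochberg adjustment over 11160 genes and calls at 0.05. DESeq2 1.42.0 and limma 3.58.1 were also used. Same-numbered KO and WT libraries, numbered by the labels, correlated in their deviations from group means, at 0.239 to 0.427 at 2 h. The values were 0.229 to 0.349 at 8 h and 0.227 to 0.291 at 24 h, so a block was fitted beside the unblocked design. Other pairs correlated at -0.343 to -0.014. Deviations from a group mean cancel out, so positive same-number values push those of other pairs down, and these are no separate evidence. Replicates differed by more than sampling noise (chi-square per degree of freedom 10.8 to 45.0). Named genes are Ms4a4a, all genes called on average, in a time or between times, the 5 with the lowest p where fewer were called, further genes of the block fit (where over 30 were called, the 15 highest and 15 lowest by fold with a mean of at least 5 CPM in a group), and up to 4 members of each list with the lowest p; others are said to be chosen after their values were seen. Of the 41 genes called with the block 1 is not reported here. Genes and lists were chosen with earlier results of these data known. Coordinates and coding sequences are from GENCODE M21 on GRCm38, which matched 10745 of 11160 symbols (96.3%). The scripts were tested on simulated data. Alternatives were other scaling, filters, tools, blocks and left-out libraries.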

Additional observations from a re-analysis of the deposited data

Results flagged for a closer look

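Genes called, or with the lowest p, in a comparison were screened for the direction of their pairs. In 5 of them KO was higher than WT in all 3 same-numbered pairs at 1 time and lower in all 3 at another. Mbd6 differed by 0.54 (log2, KO over WT) at 2 h and -0.56 at 24 h, Ttyh3 by 0.35 at 2 h and -0.60 at 24 h, and Zfpm1 by 0.99 at 8 h and -1.27 at 24 h. Rad21 differed by 0.24 at 2 h, 0.0947 at 8 h and -0.28 at 24 h, and Vat1 by 0.0495 at 2 h and -0.61 at 24 h. The direction of the libraries is no test of the difference. The share of all genes with such a pattern was not counted, so these 5 are not shown to exceed it. The genes screened included those with the lowest p in the test between times, so the p that follow partly reflect the choice of genes. In the F test between times their unadjusted p were 0.000336 for Mbd6, 0.000219 for Ttyh3, 0.000624 for Zfpm1, 0.000770 for Rad21 and 0.0209 for Vat1. None was called, with an adjusted p of 1 for each (edgeR quasi-likelihood, Benjamini-Hochberg).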

How the results depend on the processing

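Median-ratio scaling and a minimum mean of 5 CPM left every count of calls as it was. Scaling moved the median of all genes by at most 0.00631 (log2). The fit with no filter repeated the main fit, since the main filter removed 0 genes. For the average the count of 7 became 41 with the replicate block over all libraries, 24 with it nested in time, 4 with vehicle libraries alone and 24 with DESeq2. In the same order the counts were 2, 0, 0 and 2 at 2 h and 4, 0, 0 and 2 at 8 h. At 24 h both blocks gave 1. DESeq2 gave 1 for the test between times and 5 for the summed sets. Leaving out 1 library at a time gave 5 to 11 genes on average, 0 to 1 at 2 h, 0 to 3 at 8 h, 0 to 14 at 24 h and 0 to 4 for the summed sets (4 without WT replicate 1). Leaving out a number in all groups gave 1 to 16, 0 to 4, 1 to 5 and 0 to 6 genes for the average, 2, 8 and 24 h, lowest each time without number 3 and highest without number 2 (at 8 h also without number 1). The test between times and vehicle against untreated cells stayed at 0 genes in every fit with a library or number left out. Tgtp1 reversed, at 0.18 when summed with Tgtp2. Over all alternatives, 1099 values of single genes kept their direction and side of the threshold, 83 passed it, 48 no longer passed it and 1 reversed, and 880 list medians stayed within the spread of replicates while 44 moved. The causes were not tested.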
